A study of Mus musculus with 4 samples.

Results

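The genes described here carry family symbols of mouse histone-modifying enzymes or SWI/SNF type chromatin remodelling subunits, and were chosen by symbol, not activity. They were taken as every row of the expression table that carried exactly 1 gene symbol beginning with Hdac, Kdm, Kmt, Setd, Kat, Ezh, Prmt or Smarc, within the numbers of each family that the rule gives, with Kdm5c, Kdm5d and Kdm6a left out. There were 74 such genes, on 83 rows, of 19938 genes on 21789 rows with 1 symbol. A gene with several rows was represented by the row with the highest mean over the arrays. The module held 11 histone deacetylases (Hdac), 15 lysine demethylases (Kdm) and 18 genes of the Kmt and Setd methyltransferase families. It also held 7 lysine acetyltransferases (Kat), 2 Ezh genes, 8 arginine methyltransferases (Prmt) and 13 Smarc genes.

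ICR mice received a daily intraperitoneal injection of ketamine at 30 mg/kg, or saline, for 3 months, and Affymetrix Mouse Gene ST arrays were used on RNA labelled as prefrontal cortex. Ketamine blocks the NMDA type of glutamate receptor. There were 4 arrays, 2 titled saline and 2 titled ketamine, and the study described them as separate mice without technical replicates. The source field of the labels names the opposite treatment for every array, so the groups are called here by their titles, and each direction would turn round if the source field were the correct one. The labels give female mice, whereas the methods of the study give males that were 1 month old at the first injection. The deposited values are log2 expression values made by RMA, a method that corrects the background, normalizes between arrays and gives 1 value per transcript cluster.

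The label of prefrontal cortex was checked against cell type markers, since this touches every difference below. All 10 markers of cerebellar granule cells were higher on the arrays titled ketamine (limma, adjusted p under 0.05), and their summed linear level was 857.5 to 1143.0 on the arrays titled saline and 12639.3 to 13426.5 on those titled ketamine. All 4 Purkinje cell markers were higher as well (715.5 to 947.0 against 5318.8 to 5853.7). In contrast, 7 of 8 forebrain neuron markers were lower (3530.9 to 3573.2 against 269.8 to 305.9), and the defining cortical markers Tbr1 and Neurod6 lay below the 95th percentile of olfactory receptor rows on both arrays titled ketamine, with Ddn below it on 1 of them. All 6 striatal markers (4761.0 to 4924.2 against 2044.7 to 2102.9) and all 6 microglial markers (1031.3 to 1041.5 against 536.6 to 612.3) were lower, and 5 of 6 choroid plexus markers were higher (3172.2 to 3230.5 against 4270.6 to 5606.7). Of 6 astrocyte markers 1 was higher and 1 lower (4434.2 to 4596.9 against 4589.1 to 4833.2), and 0 of 5 oligodendrocyte markers passed limma's test, with 0 at an unadjusted p under 0.05 (3859.2 to 4029.2 against 3868.2 to 4963.4). Markers of cell types and brain regions thus moved with the titles, and the treatment and the tissue cannot be told apart in any difference given here. In such bulk samples, fewer cells of a type and less RNA per cell cannot be told apart either.

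Histone deacetylases and acetyltransferases remove and add acetyl groups on histone tails, and acetylated chromatin is in general more open to transcription. Lysine and arginine methyltransferases and the demethylases write and erase methyl marks, some tied to active genes and others to silencing. SWI/SNF complexes, also called BAF complexes, slide or eject nucleosomes with energy from ATP. They are assembled from alternative subunits of the same kind, and the exchange of some of these subunits is known to accompany the passage from a dividing neural progenitor to a neuron.

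The chromatin genes were well above the signal of silent rows. Their means over the 4 arrays lay between 4.71 and 9.39 on the log2 scale with a median of 7.71, while the median of all genes was 5.96. For comparison, the 95th percentile of 1035 olfactory receptor rows, which are not thought to be transcribed in brain, was 4.20 to 4.56 on the 4 arrays. Only Kdm4d had an array below that percentile. The 2 arrays titled saline differed by a median of 0.118 over the members, and by 0.449 at most. The 2 arrays titled ketamine differed by a median of 0.111, and by 0.354 at most. The group means differed by a median of 0.248 and by up to 1.83, and in 50 of the 74 genes the difference between groups was larger than both differences within groups. How many of all genes did so was not counted, so this is no result about chromatin genes. The shares of genes whose groups did not overlap are given below, for the members and for all genes.

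By limma with Benjamini-Hochberg adjustment over all 21789 rows, 19 of the 74 genes were higher on the arrays titled ketamine (25.7%), 8 were lower (10.8%) and 47 did not pass an adjusted p of 0.05. Among all 19938 genes, 23.2% were called higher and 9.92% lower, so both shares were near the background and are no result about chromatin genes as a class. The values of the arrays titled ketamine lay above both of the others in 40 genes (54.1%), below in 15 (20.3%) and between or across them in 19, where the background was 48.4% above and 21.8% below. At the 1.3-fold threshold that the study used, 19 genes were higher and 8 lower, against 24.0% and 10.1% of all genes. The members' median difference was 0.17 on the log2 scale and that of all genes 0.13.

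The median of all genes was thus itself shifted towards the arrays titled ketamine, whose array medians were 6.04 and 6.04 against 5.90 and 5.91. Each array was therefore also centred on the median of its rows, which left the median difference of all genes at −0.01 and that of the members at 0.03. After centring, 13 members were called higher (17.6%) and 9 lower (12.2%), with 14.4% and 15.1% of all genes as the background. Since brighter rows are called more often, the 68 members at or above the median row level were also set beside the 9877 genes at that level. Of these members 12 were called higher (17.6%) and 8 lower (11.8%), against 17.9% and 17.0%. Called genes are described below as higher or lower without further words where they passed in the same direction under both scalings. This held for 13 higher and 8 lower members. The share of all genes that passed under both scalings was not counted, so these counts are no result about chromatin genes. The smallest p that an exact two-sided permutation test of 2 arrays against 2 can give is 0.333, so that the adjusted p-values rest on the spread that limma pools over all rows. When either array titled ketamine was left out, 0 of the 74 members passed, and 13 or 19 higher and 5 or 6 lower members remained at an unadjusted p under 0.05. Without saline array 1, 15 members were higher and 5 lower, and of the genes called under both scalings Kdm6b, Kat2a, Smarcc1 and Smarcd3 did not pass. Without saline array 2, 8 members were higher and 3 lower, and Hdac1, Kat6a, Kdm4c, Kdm7a, Kmt2c, Kat2a, Kdm4d, Prmt2, Smarcc1 and Smarcd3 did not pass. With rows of several symbols or none tested too, Kdm7a, Kat2a, Kdm4d, Smarcc1 and Smarcd3 did not pass either.

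**Figure D1:**
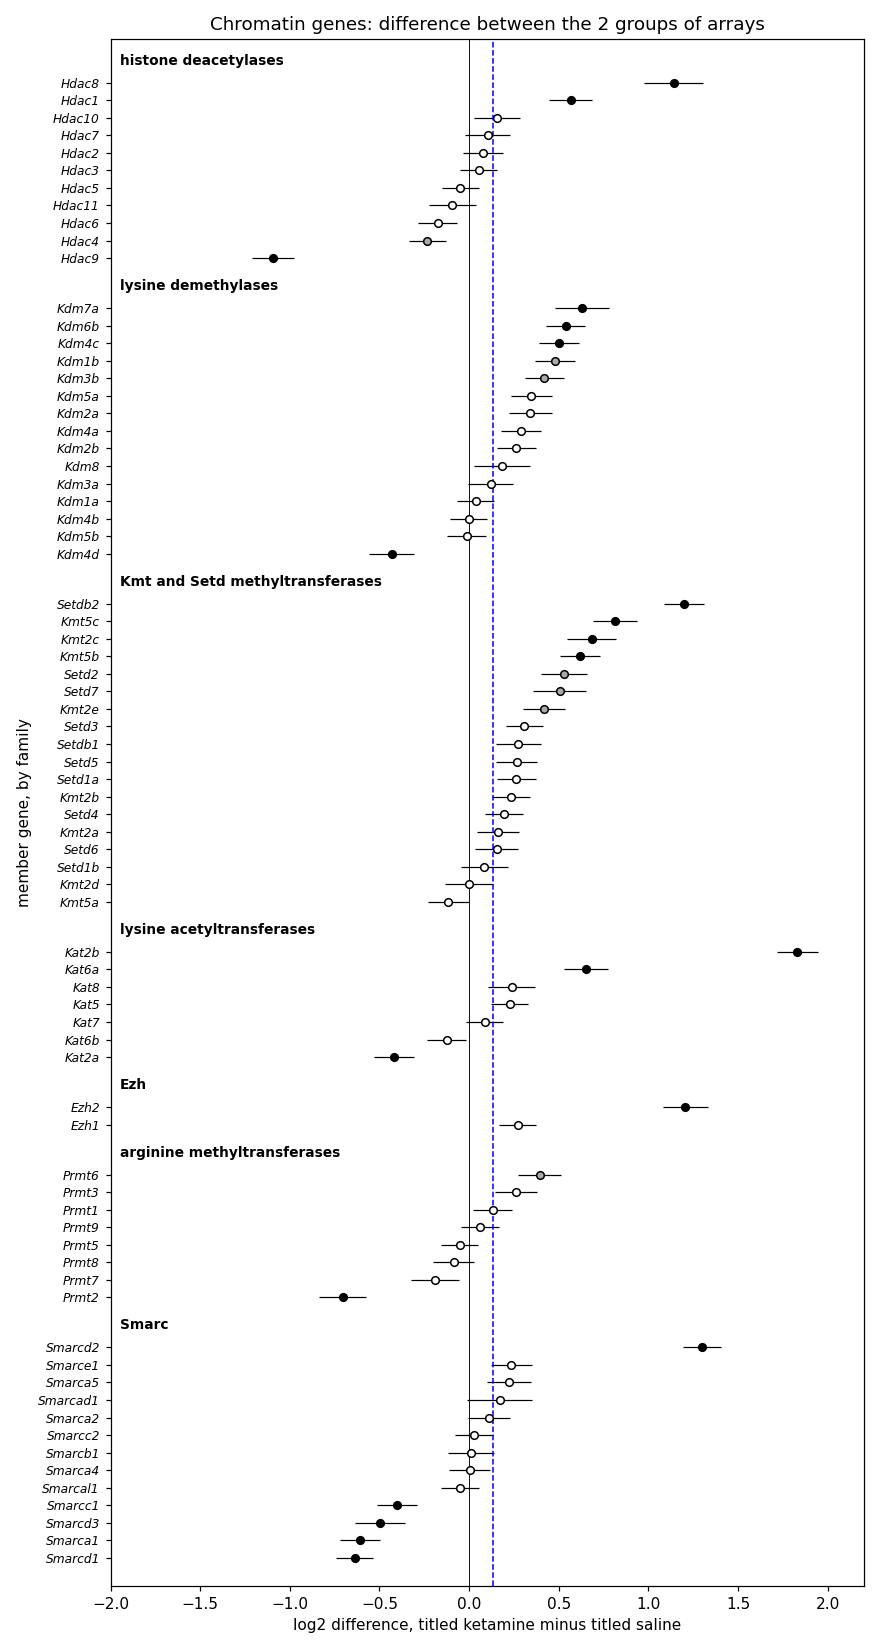
Difference of the group means (titled ketamine minus titled saline, log2 scale, as deposited) for each of the 74 chromatin genes, in blocks by family, with bars for the standard error from limma. Black points passed an adjusted p of 0.05 in the same direction as deposited and after centring (13 higher, 8 lower), grey points passed under only 1 of these scalings, open points under neither, and the dashed line is the median of all genes at 0.13.

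**Figure D2:**
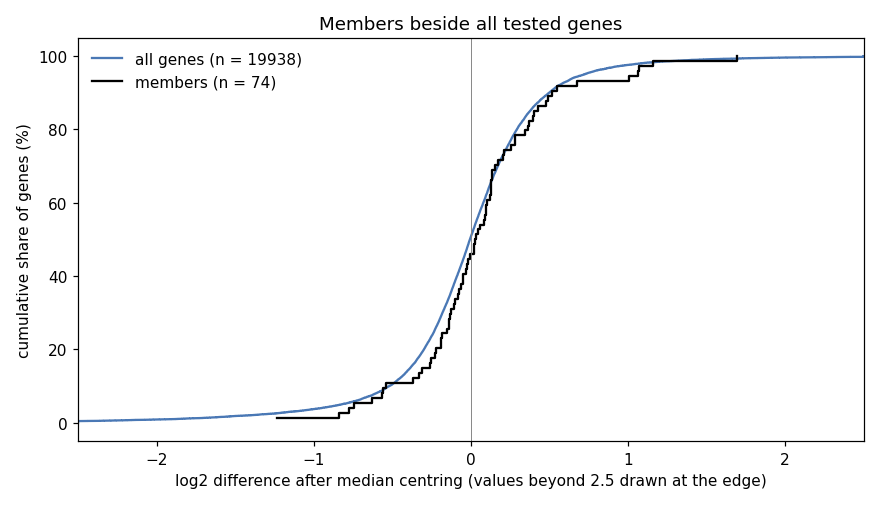
Cumulative share of genes (vertical axis) against the median-centred log2 difference, titled ketamine minus titled saline (horizontal axis, drawn from −2.5 to 2.5), for the 74 chromatin genes and for all 19938 genes. The curves cross close to 0, with medians of 0.03 for the chromatin genes and −0.01 for all genes.

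Among the Smarc genes, the most divided group was that of the Smarcd subunits, 3 related proteins of which a SWI/SNF complex holds 1 kind. Smarcd2 was higher on the arrays titled ketamine, whereas Smarcd1 and Smarcd3 were lower. Of the 13 Smarc genes, 1 was higher, 4 were lower and 8 were not called, with differences from −0.05 to 0.24 in those 8. Beside these counts stand 23.2% of all genes called higher and 9.92% lower as deposited, and 14.4% and 15.1% after centring. The counts of this family were not tested against other genes. The median difference of the family was 0.01.

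Smarcd2 read 5.76 and 5.85 on the arrays titled saline and 7.14 and 7.07 on those titled ketamine, a difference of 1.3 ± 0.108 (SE, n = 2 per group) or 2.46-fold (limma, adjusted p = 0.00023). The groups lay far apart compared with the gap between the arrays of either group. Smarcd1 read 8.41 and 8.47 against 7.81 and 7.79, a difference of −0.64 ± 0.105 (limma, adjusted p = 0.00414). Smarcd3, best known from heart development, read 7.79 and 7.86 against 7.15 and 7.50, a difference of −0.49 ± 0.139 (limma, adjusted p = 0.0323). The arrays of Smarcd3 did not overlap between groups, but the 2 arrays titled ketamine were less alike, and without the first of them the difference was −0.32. Within each array, the log2 ratio of Smarcd2 to Smarcd1 was higher by 1.94 on the arrays titled ketamine (1.91 to 1.96 when any array was left out), and that of Smarcd2 to Smarcd3 by 1.79 (1.59 to 2.00). A ratio within an array is not touched by median centring, and it shows unequal change, not which gene moved.

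The promoter letters of these 3 genes are shown because their transcripts moved in different directions. The windows are the 250 bases before the first annotated start in RefSeq (GRCm38.p6), written 5′ to 3′ on the strand of the gene, with capitals marking a GC box (GGGCGG, either strand) or an E-box (CAGCTG).
Smarcd1 chr15:99702037-99702286 (+ strand): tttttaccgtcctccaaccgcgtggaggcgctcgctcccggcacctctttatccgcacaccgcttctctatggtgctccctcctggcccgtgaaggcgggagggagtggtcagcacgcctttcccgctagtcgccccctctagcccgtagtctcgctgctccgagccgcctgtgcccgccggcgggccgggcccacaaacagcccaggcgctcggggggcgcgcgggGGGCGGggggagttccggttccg
Smarcd2 chr11:106267633-106267882 (- strand): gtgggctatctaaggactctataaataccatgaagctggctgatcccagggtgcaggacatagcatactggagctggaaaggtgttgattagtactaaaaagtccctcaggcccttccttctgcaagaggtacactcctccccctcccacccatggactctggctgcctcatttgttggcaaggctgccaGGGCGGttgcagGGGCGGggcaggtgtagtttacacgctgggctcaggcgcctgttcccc
Smarcd3 chr5:24602003-24602252 (- strand): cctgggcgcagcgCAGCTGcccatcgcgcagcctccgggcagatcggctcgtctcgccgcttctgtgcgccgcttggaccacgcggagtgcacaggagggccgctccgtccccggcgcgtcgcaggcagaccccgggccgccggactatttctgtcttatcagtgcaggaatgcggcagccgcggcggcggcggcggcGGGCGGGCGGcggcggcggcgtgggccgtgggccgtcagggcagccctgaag
The Smarcd1 window held 1 GC box and 29 CG dinucleotides, and the Smarcd3 window held 2 overlapping GC boxes, 1 E-box and 38 CG dinucleotides. The Smarcd2 window held 2 GC boxes and only 4 CG dinucleotides. Promoters were matched for 61 of the 74 members, with 81 windows. A GC box was found in 60.5% of the member windows and in 32.7% of all 32851 windows, which were not matched for expression level. A CCAAT box (CCAAT) was found in 40.7% and 33.8%, and the E-box in 13.6% and 13.0%. A cyclic AMP response element (TGACGTCA) was found in 1.23% and 1.55%. Of members called under both scalings, 38.5% of the 13 windows of higher ones and 55.6% of the 9 of lower ones held a GC box. The median number of CG dinucleotides was 19 in the member windows and 6 in all. These are counts of letters, and no binding was measured.

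The core subunit Smarcc1 was lower, with 7.81 and 7.65 on the arrays titled saline and 7.35 and 7.31 on those titled ketamine (difference −0.40 ± 0.112, limma, adjusted p = 0.0317). Its paralog Smarcc2 read 9.23 and 9.23 against 9.29 and 9.23, a difference of 0.03 that was within the spread of the arrays. The log2 ratio of Smarcc1 to Smarcc2 was lower in both arrays titled ketamine, by a mean of −0.43. The alternative ATPases of the complex, Smarca4 and Smarca2, differed by 0.00 ± 0.114 and 0.11 ± 0.116, and the groups overlapped in both genes. Smarca1, a nucleosome sliding ATPase of the ISWI type and not of SWI/SNF, was lower, with 8.56 and 8.43 against 7.85 and 7.93 (difference −0.61 ± 0.111, limma, adjusted p = 0.00652). Its paralog Smarca5 was not called (difference 0.22 ± 0.122), and the log2 ratio of Smarca1 to Smarca5 was lower by a mean of −0.83.

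Among the acetyltransferases, 2 of 7 were higher, 1 was lower and 4 were not called (−0.12 to 0.24). Over all genes, 23.2% were called higher and 9.92% lower as deposited, and 14.4% and 15.1% after centring. Kat2b and Kat2a, closely related enzymes that acetylate histone H3 as parts of the same kinds of coactivator complex, moved in opposite directions. Kat2b had the largest difference of all 74 genes. It read 5.67 and 5.52 on the arrays titled saline and 7.49 and 7.37 on those titled ketamine, a difference of 1.83 ± 0.114 or 3.56-fold (limma, adjusted p = 7.57e-05). Kat2a read 7.29 and 7.18 against 6.75 and 6.88, a difference of −0.42 ± 0.113 (limma, adjusted p = 0.028). The ratio of Kat2b to Kat2a rose in both arrays titled ketamine, by 2.25 on the log2 scale (2.13 to 2.38 when any array was left out). Kat6a, the catalytic subunit of a MYST type acetyltransferase complex, was higher, with 7.98 and 7.81 against 8.63 and 8.46 (difference 0.65 ± 0.121, limma, adjusted p = 0.00668). Its paralog Kat6b had a difference of −0.12 ± 0.109, which was not called.

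The promoter windows of the Kat2 pair are given since these genes differed most within 1 family. Kat2b has windows at 2 annotated starts, and capitals again mark a GC box or an E-box.
Kat2a chr11:100712468-100712717 (- strand): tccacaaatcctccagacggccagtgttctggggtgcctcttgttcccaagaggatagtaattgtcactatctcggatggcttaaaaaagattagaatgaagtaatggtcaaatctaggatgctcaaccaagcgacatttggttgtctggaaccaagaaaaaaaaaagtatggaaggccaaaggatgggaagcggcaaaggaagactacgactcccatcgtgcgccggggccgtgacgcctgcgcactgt
Kat2b start site 1 chr17:53566721-53566970 (+ strand): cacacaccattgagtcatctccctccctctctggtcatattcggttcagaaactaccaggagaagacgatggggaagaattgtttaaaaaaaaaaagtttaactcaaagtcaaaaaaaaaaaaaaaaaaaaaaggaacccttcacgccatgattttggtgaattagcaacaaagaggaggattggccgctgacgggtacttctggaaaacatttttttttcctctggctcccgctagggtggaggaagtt
Kat2b start site 2 chr17:53583876-53584125 (+ strand): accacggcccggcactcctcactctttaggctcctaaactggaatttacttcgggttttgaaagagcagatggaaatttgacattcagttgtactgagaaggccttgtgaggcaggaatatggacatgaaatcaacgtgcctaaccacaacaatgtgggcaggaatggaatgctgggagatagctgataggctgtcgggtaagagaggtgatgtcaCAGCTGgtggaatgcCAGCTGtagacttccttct
A GC box was found in 0 of these windows. The second Kat2b window held 2 E-boxes, the first held a CCAAT box, and the windows held 5 to 11 CG dinucleotides each.

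**Figure D3:**
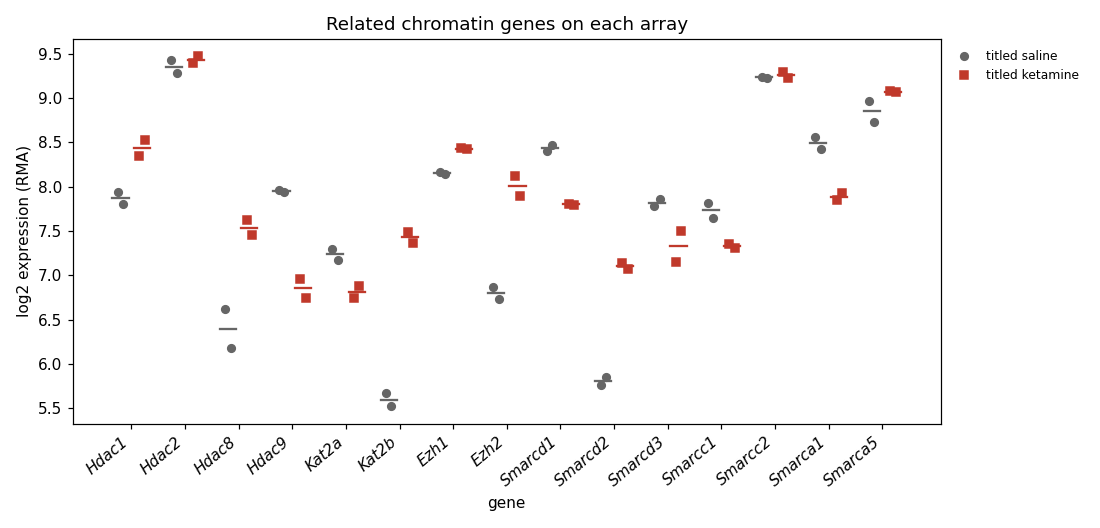
Deposited log2 values of paralogous chromatin genes on each array (vertical axis), with grey circles for the arrays titled saline, red squares for those titled ketamine and short bars for the group means (n = 2 per group). Kat2b and Smarcd2 lie higher on the arrays titled ketamine while Kat2a, Smarcd1 and Smarcd3 lie lower, and the heights of different genes are not comparable because their probes differ.

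Of the 11 histone deacetylases, 2 were called higher and 1 lower as deposited, and the rest differed by −0.23 to 0.16. After centring 2 were called higher and 2 lower, with Hdac4 among the latter. These counts stand beside 23.2% of all genes called higher and 9.92% lower as deposited, and 14.4% and 15.1% after centring. Hdac8, a class I enzyme, read 6.62 and 6.18 on the arrays titled saline and 7.63 and 7.45 on those titled ketamine (difference 1.14 ± 0.163 or 2.2-fold, limma, adjusted p = 0.00238). Hdac1, the class I enzyme of the large corepressor complexes, read 7.94 and 7.80 against 8.35 and 8.52 (difference 0.57 ± 0.119, limma, adjusted p = 0.0109). Both genes were apart between the groups, although the 2 arrays titled saline were less alike in Hdac8 than in Hdac1. Hdac2, the close paralog of Hdac1, read 9.43 and 9.28 against 9.39 and 9.47, which overlapped. The log2 ratio of Hdac1 to Hdac2 was higher by 0.49 (0.44 to 0.54 when any array was left out).

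The class IIa deacetylases shuttle between nucleus and cytoplasm and bind MEF2 transcription factors. Hdac9 was the lowest of all members in its difference. It read 7.96 and 7.94 on the arrays titled saline and 6.96 and 6.75 on those titled ketamine, a difference of −1.10 ± 0.117 or 2.14-fold lower (limma, adjusted p = 0.0007). The other class IIa genes moved less. Hdac5 differed by −0.05 ± 0.104 and Hdac7 by 0.10 ± 0.127, and neither was called. Hdac4 differed by −0.23 ± 0.104 and passed only after centring (difference −0.37, limma, adjusted p = 0.0351). A second row of Hdac4 read in the opposite direction, with 6.83 and 6.97 against 7.25 and 7.25 (difference 0.35, limma, adjusted p = 0.0469), so no direction is given for this gene. The log2 ratio of Hdac9 to Hdac5 was lower by a mean of −1.05 on the arrays titled ketamine, that to Hdac7 by −1.20 and that to Hdac4 by −0.86.

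The Kmt and Setd methyltransferases had 7 of 18 genes called higher and 0 lower by limma as deposited, and 4 higher and 0 lower after centring. Of all genes, 23.2% were called higher and 9.92% lower as deposited, and 14.4% and 15.1% after centring. At an unadjusted p under 0.05 as deposited, 0 of the 18 were lower and 9 were higher, where 12.9% of all genes were lower and 31.9% higher. The family's counts were not tested against other genes. The difference was above 0 in 17 of the 18 as deposited and in 15 after centring, beside 13075 and 9839 of all 19938 genes. Setdb2, of the family that methylates histone H3 at a lysine of silent chromatin, changed most. It read 4.50 and 4.56 on the arrays titled saline and 5.81 and 5.65 on those titled ketamine (difference 1.20 ± 0.112 or 2.29-fold, limma, adjusted p = 0.000388). On the arrays titled saline this was close to the olfactory receptor range, where RMA values are compressed. Kmt5c and Kmt5b, which add further methyl groups to a lysine of histone H4, were both higher. Kmt5c read 5.99 and 5.88 against 6.85 and 6.64 (difference 0.81 ± 0.121, limma, adjusted p = 0.00277). Kmt5b read 7.27 and 7.27 against 7.97 and 7.81 (difference 0.62 ± 0.112, limma, adjusted p = 0.00624).

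Kmt2c, which methylates histone H3 at enhancers, read 7.06 and 6.87 on the arrays titled saline and 7.79 and 7.51 on those titled ketamine (difference 0.68 ± 0.137, limma, adjusted p = 0.00925). The other 3 called genes of the family passed as deposited and not after centring. Setd2, which adds the methyl mark that follows elongating RNA polymerase, differed by 0.53 as deposited and by 0.40 after centring (limma, adjusted p = 0.0188 and 0.0521). Setd7 and Kmt2e differed by 0.50 and 0.42 as deposited and by 0.37 and 0.28 after centring. The groups did not overlap in any of these 3 genes as deposited. Setd1a and Setd1b, the catalytic subunits of the COMPASS complexes, were not called (differences 0.26 ± 0.107 and 0.09 ± 0.132).

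Of the 2 Ezh genes, Ezh2 was higher and Ezh1 was not called. They are the alternative catalytic subunits of the polycomb repressive complex PRC2, and Ezh2 is known as the form of dividing progenitors while Ezh1 persists in differentiated cells. Ezh2 read 6.86 and 6.73 on the arrays titled saline and 8.12 and 7.89 on those titled ketamine, a difference of 1.21 ± 0.125 or 2.31-fold (limma, adjusted p = 0.000595). Ezh1 read 8.17 and 8.14 against 8.44 and 8.42, a difference of 0.27 ± 0.103 (limma, adjusted p = 0.0842). The log2 ratio of Ezh2 to Ezh1 was higher by 0.94 (0.83 to 1.04 when any array was left out). Of 5 markers of proliferating cells, 3 were called higher and 0 lower as deposited, with 1 lower at an unadjusted p under 0.05, and 2 were higher and 1 lower after centring. Mki67 and Mcm2 passed as higher both times, Pcna as deposited only, and Top2a passed as lower after centring (difference −0.47, limma, adjusted p = 0.0165). The summed linear level of the 5 was 360.7 to 375.1 against 487.1 to 508.6. Of these markers Mki67, Top2a and Cdk1 fell into the olfactory receptor range in arrays of both groups. The part of dividing cells in the difference of Ezh2 was not tested.

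Of the 15 lysine demethylases, 5 were called higher and 1 lower as deposited, and 3 and 1 after centring. The shares over all genes were 23.2% and 9.92% as deposited, and 14.4% and 15.1% after centring. The 9 that were called under neither scaling differed by −0.01 to 0.35. Kdm7a, which removes repressive methyl marks, read 8.54 and 8.25 on the arrays titled saline and 9.17 and 8.87 on those titled ketamine (difference 0.63 ± 0.151, limma, adjusted p = 0.0186). Kdm6b, an enzyme that removes the PRC2 mark, read 5.97 and 6.04 against 6.61 and 6.47 (difference 0.54 ± 0.111, limma, adjusted p = 0.0102). Ezh2 and Kdm6b, a writer and an eraser of the same mark, were both higher.

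Kdm4c read 7.41 and 7.28 on the arrays titled saline and 7.90 and 7.79 on those titled ketamine (difference 0.50 ± 0.112, limma, adjusted p = 0.0142). Kdm4d, an enzyme of the same subfamily best known from testis, was lower, with 4.79 and 5.06 against 4.48 and 4.50 (difference −0.43 ± 0.125, limma, adjusted p = 0.036), but its values on the arrays titled ketamine lay at the upper edge of the olfactory receptor rows. Kdm1b and Kdm3b passed as deposited only, with differences of 0.48 and 0.42 and of 0.34 and 0.28 after centring.

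Of the 8 arginine methyltransferases, 1 was called higher and 1 lower by limma as deposited (1 and 1 at an unadjusted p under 0.05), and 0 and 1 after centring. Among all genes the shares called were 23.2% higher and 9.92% lower as deposited, and 14.4% and 15.1% after centring. Prmt2 read 8.42 and 8.50 on the arrays titled saline and 7.61 and 7.90 on those titled ketamine (difference −0.71 ± 0.132 or 1.63-fold lower, limma, adjusted p = 0.00697). Prmt6 differed by 0.39 as deposited (limma, adjusted p = 0.0402) and by 0.26 after centring, which did not pass. Prmt1, the main enzyme of the family, and Prmt8, its neuron-rich relative, differed by 0.13 ± 0.109 and −0.09 ± 0.113. Prmt5 and Prmt7 differed by −0.05 ± 0.104 and −0.19 ± 0.134.

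Partners of these enzymes that carry other symbols were read from 4 lists. Of 19 other BAF and PBAF subunits, 9 were higher and 3 lower as deposited, and 4 and 5 after centring. Bcl11a, a zinc finger subunit of neuronal BAF complexes, read 8.84 and 8.79 on the arrays titled saline and 6.79 and 6.53 on those titled ketamine (difference −2.16 ± 0.124 or 4.46-fold lower, limma, adjusted p = 5.45e-05). Its paralog Bcl11b differed by −1.58 ± 0.109 (limma, adjusted p = 0.00011). Bcl11b was also 1 of the forebrain neuron markers above, so its difference is part of the result of that list and not a separate one. Bcl11a was not on that list, but the part of forebrain neurons in its difference was not tested. Dpf3 was higher, with 5.37 and 5.50 against 7.38 and 7.19 (difference 1.84 ± 0.12 or 3.59-fold, limma, adjusted p = 8.71e-05), whereas its paralog Dpf1 was lower, with 7.27 and 7.35 against 6.39 and 6.68 (difference −0.78 ± 0.131, limma, adjusted p = 0.00468). Both are known as subunits of the neuronal form of the complex.

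The subunits that neurons are known to exchange did not all move together. Actl6a, the progenitor form of the actin-like subunit, was called higher as deposited only (difference 0.41, and 0.27 after centring). The neuronal form Actl6b passed as lower only after centring (difference −0.27, and −0.41 after centring), and the log2 ratio of Actl6b to Actl6a was lower by a mean of −0.68. Ss18, the progenitor form, was higher under both scalings, with 5.95 and 6.34 against 7.30 and 6.98 (difference 0.99 ± 0.167, limma, adjusted p = 0.00467). The neuronal form Ss18l1 was not called (difference −0.20, and −0.33 after centring), and the ratio of Ss18l1 to Ss18 was lower by a mean of −1.19. Dpf2 was called higher as deposited only (difference 0.37), and the ratio of Dpf1 to Dpf2 was lower by a mean of −1.15. Dpf3, a neuronal form too, was the one that was higher. Phf10, of the same list of subunits, was not called (difference 0.12, and −0.015 after centring), and its groups overlapped. The ratio of Dpf1 to Phf10 was not computed, so the ratio to Dpf2 does not stand for every such exchange. Bcl7c, a subunit with no such exchange, differed by 0.69 (limma, adjusted p = 0.00358).

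**Figure D4:**
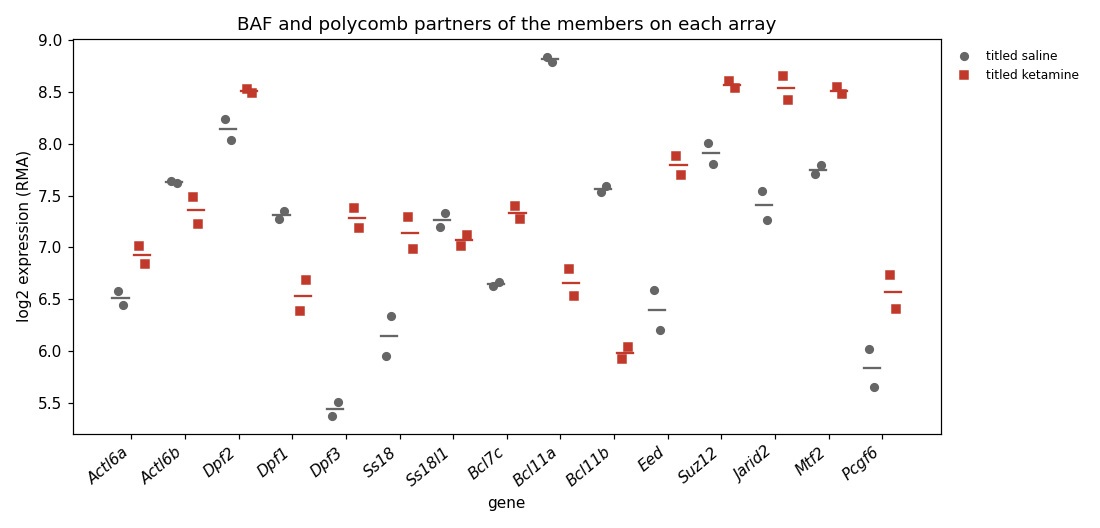
Deposited log2 values of partner genes of the SWI/SNF and polycomb complexes on each array (vertical axis), with grey circles for the arrays titled saline, red squares for those titled ketamine and bars for the group means (n = 2 per group). Dpf3 and Eed lie higher on the arrays titled ketamine and Bcl11a, Bcl11b and Dpf1 lie lower, without overlap.

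Of 22 polycomb genes other than Ezh, 8 were higher and 0 lower as deposited by limma, and 5 and 0 after centring. At an unadjusted p under 0.05 as deposited, 11 were higher and 0 lower, beside 31.9% and 12.9% of all genes. The core PRC2 subunits Eed and Suz12 were both higher. Eed read 6.59 and 6.20 on the arrays titled saline and 7.88 and 7.70 on those titled ketamine (difference 1.40 ± 0.155 or 2.63-fold, limma, adjusted p = 0.000814), and Suz12 differed by 0.66 ± 0.117 (limma, adjusted p = 0.00564). The accessory subunits Jarid2 and Mtf2, which help to place PRC2 on chromatin, differed by 1.14 ± 0.142 and 0.76 ± 0.107 (limma, adjusted p = 0.00132 and 0.00219). Pcgf6, a subunit of a PRC1 type complex, differed by 0.73 ± 0.168 (limma, adjusted p = 0.0155).

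Of 20 corepressor subunits and sirtuins that deacetylate or hold deacetylases, 6 were higher and 0 lower as deposited by limma (8 and 0 at an unadjusted p under 0.05, beside the same 31.9% and 12.9%), and 2 and 1 after centring. Sirt1, a deacetylase that depends on NAD, read 7.0 and 6.72 on the arrays titled saline and 7.83 and 7.79 on those titled ketamine (difference 0.95 ± 0.127, limma, adjusted p = 0.00177). Rcor1, which joins Hdac1 to a demethylase, differed by 0.53 ± 0.104 (limma, adjusted p = 0.00869). Rcor3 passed as deposited only (difference 0.48 ± 0.117), and Rcor2 passed as lower only after centring (difference −0.31, and −0.45 after centring). Of 18 histone enzymes with other symbols, 5 were higher and 2 lower as deposited, and 4 and 2 after centring. Dot1l, which methylates the globular part of histone H3, differed by 1.18 ± 0.12 (limma, adjusted p = 0.000557), and Jmjd1c, of the demethylase superfamily, by 1.05 ± 0.142 (limma, adjusted p = 0.00189). Hat1, which acetylates new histones, differed by 0.64 ± 0.138 (limma, adjusted p = 0.0122). Ehmt2, a silencing methyltransferase, was lower, with 8.15 and 8.26 against 7.79 and 7.64 (difference −0.49 ± 0.114, limma, adjusted p = 0.0164). The counts of these 4 lists are to be read beside the 23.2% of all genes called higher and the 9.92% called lower as deposited, and the 14.4% and 15.1% after centring. Of the 17 named partner genes called under both scalings, 0 passed limma without either array titled ketamine (where 0 of all 21789 rows passed, with 5974 and 6461 at an unadjusted p under 0.05), Ehmt2 did not pass without saline array 1, and Dpf1, Ehmt2, Hat1 and Pcgf6 did not pass without saline array 2. Ehmt2 and Pcgf6 also did not pass with rows of several symbols or none tested. As with the members, the part of the cerebellar and forebrain markers in these differences was not tested.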

How the data were processed

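RNA from 4 mice, 2 titled saline and 2 titled ketamine, was measured on Affymetrix Mouse Gene ST arrays. The values deposited by the authors are log2 expression values, computed by RMA with the Expression Console software of Affymetrix on core exons, per the labels. Its version is not given in the sources used here, nor is a genome build. RMA gives the arrays 1 distribution of probe values, so that a shift of most genes one way would be partly removed. No column of sample values was left unused, and the number of arrays limits the precision.

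Gene names came from the platform annotation. The table had 35556 rows. The 21789 that carried a single symbol were tested, while 1621 carried more than 1 and 12146 carried no symbol. All 74 members were matched to RefSeq by gene number with equal symbols. Differences were tested with limma (version 3.58.1, lmFit and eBayes, R version 4.3.3) without covariates and with Benjamini-Hochberg adjustment. The fit was also run on simulated data with independent noise and far fewer changed rows than here, so that run does not vouch for these calls. A p-value measures the spread between these samples only. Centring subtracted the median of the tested rows from each array. Standard errors are those of eBayes.

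The members and lists were chosen with earlier results of these data known. Named genes were up to 5 per family and up to 4 per partner list with the largest centred difference, and the members of preset related pairs. Kdm3b, Kmt2e, Setd7, Smarce1, Actl6a, Actl6b, Dpf2, Phf10, Ss18, Ss18l1, Suz12 and Bcl7c were added to these names with their values already known. Listed genes without a row of their own were not analysed here. Promoter sequences are those of RefSeq, and array coordinates were not used here.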

Additional observations from a re-analysis of the deposited data

How the results depend on the processing

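With 2 arrays per group, the called members depended most on which arrays were kept: over the fits without 1 array, 0 to 15 members were called higher and 0 to 5 lower, each 0 without a ketamine array (13 and 19 higher and 5 and 6 lower at an unadjusted p under 0.05, where limma passed 0 of all 21789 rows), and the lone remaining array was assumed to vary like the other group. With rows of any symbol or none tested as well, 4 members were lower. The members' median difference was 0.0297 after centring and −0.0076 after quantile normalization. Past 1.5-fold there were 14 members and past 2-fold 6. The numbers of the titles were only shared labels (correlation of the deviations of same-numbered arrays 0.034), and with the number as a replicate block 21 members were higher and 8 lower. Quantile normalization, the filter on dim rows, both eBayes options, the mean of a gene's rows and the replicate block changed the call of none of the 13 higher and 8 lower members called under both scalings, apart from 1 higher and 1 lower member that the filter removed.

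Differences turned in sign, after centring and quantile normalization, to −0.059 and −0.022 for Hdac2, −0.032 and −0.093 for Hdac7, −0.051 and −0.098 for Setd1b, −0.0046 and −0.012 for Prmt1, −0.026 and −0.012 for Smarca2, −0.13 and −0.13 for Smarca4 and −0.11 and −0.096 for Smarcc2, and with the mean of its rows to 0.057 for Hdac4. Over the fits without 1 array they ran from −0.034 to 0.24 for Hdac7, −0.065 to 0.24 for Setd1b, −0.070 to 0.078 for Smarca4 and −0.0032 to 0.058 for Smarcc2. Phf10 turned in sign too, to −0.015 and −0.036, and ran from −0.035 to 0.28 over the fits without 1 array. None of these genes was called as deposited.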

Other observations

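Some chromatin genes were read by more than 1 row, which gives a second reading of the same RNA that is not an independent sample. Of the 74 genes, 8 had several rows. For Hdac1 and Kdm7a, the row not used for the gene differed by 0.46 and 0.56 as deposited, and both passed. After centring these rows differed by 0.32 and 0.42 and did not pass (limma, adjusted p = 0.0913 and 0.0817). That Hdac1 and Kdm7a passed under both scalings thus depended on the row used. Smarce1, the HMG box subunit of SWI/SNF, had 3 rows with differences of 0.24, 0.41 and 0.34, of which only the second passed (limma, adjusted p = 0.0282), while the row used for the gene did not. For Smarca5, 3 further rows that also carry the symbols of a pseudogene and a predicted gene differed by 0.40, 0.44 and 0.43, beside 0.22 for the row that names Smarca5 alone, and reads of these copies by the probes cannot be told apart. As deposited, the Hdac4 rows differed in sign. The Kmt2d rows differed by 0.00 and 0.20 as deposited, by −0.14 and 0.06 after centring and by −0.16 and 0.03 after quantile normalization, and neither row was called. No cause was tested.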
